A study of Mus musculus with 10 samples.

Results

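Beta cell identity in the mouse rests on a small group of transcription factors, and 10 of them were followed here in pancreatic islets of mice fed a western diet: Pdx1, Mafa, Nkx6-1, Nkx2-2, Neurod1, Isl1, Pax6, Rfx6, Foxo1 and Insm1. The members were matched by gene symbol, and all 10 were among the 27665 genes of the deposited table and among the 15104 genes that had enough reads to be tested. Islets from 10 males of the inbred strain C57BL/6J were isolated and processed at once, and total RNA was sequenced as 1 library per mouse. The western diet group had 5 mice, 4 of them housed in cage 4 and 1 in cage 2, and the chow group had 5 mice on standard chow, all housed in cage 3. The mice were 8 to 10 weeks old and were fed for 4 weeks, with no genetic change or drug named in the labels. No cage held mice of both diets, so an effect of diet and an effect of cage cannot be told apart.

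Beta cells make and secrete insulin, and their factors act as a network in which homeodomain, basic helix-loop-helix, leucine zipper, winged helix and zinc finger proteins bind the promoters and enhancers of insulin, of glucose handling genes and of one another. Pdx1, Mafa and Nkx6-1 are mostly restricted to beta cells within the adult mouse islet, although delta cells also make Pdx1. Nkx2-2, Neurod1, Isl1, Pax6, Rfx6 and Insm1 serve several endocrine cell types, and Foxo1 is a widely expressed factor that insulin signalling moves out of the nucleus.

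The upstream sequences of Foxo1, Pax6 and Rfx6 are shown because these members were lower on western diet and the windows hold next to no annotated exon. Each window is the 250 bases before a RefSeq gene start on GRCm38.p6, read 5′ to 3′ on the gene's strand. The windows are chr3:52268087-52268336 on the plus strand for Foxo1, chr2:105668646-105668895 on the plus strand for Pax6 and chr10:51685268-51685517 on the plus strand for Rfx6. Capitals mark the homeodomain core TAAT, which reads ATTA on the other strand, and the E-box CANNTG, the site of basic helix-loop-helix factors such as Neurod1. No capital run belongs to both motifs.
Foxo1: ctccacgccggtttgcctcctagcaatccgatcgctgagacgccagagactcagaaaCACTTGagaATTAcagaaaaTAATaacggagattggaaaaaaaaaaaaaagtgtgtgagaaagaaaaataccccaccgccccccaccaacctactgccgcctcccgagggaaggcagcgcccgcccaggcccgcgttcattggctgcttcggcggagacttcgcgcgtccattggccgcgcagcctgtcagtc
Pax6: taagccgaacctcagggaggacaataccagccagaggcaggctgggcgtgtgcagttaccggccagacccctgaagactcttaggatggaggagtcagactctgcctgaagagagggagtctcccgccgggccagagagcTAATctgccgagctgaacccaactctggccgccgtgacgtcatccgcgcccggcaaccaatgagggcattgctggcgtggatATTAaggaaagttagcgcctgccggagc
Rfx6: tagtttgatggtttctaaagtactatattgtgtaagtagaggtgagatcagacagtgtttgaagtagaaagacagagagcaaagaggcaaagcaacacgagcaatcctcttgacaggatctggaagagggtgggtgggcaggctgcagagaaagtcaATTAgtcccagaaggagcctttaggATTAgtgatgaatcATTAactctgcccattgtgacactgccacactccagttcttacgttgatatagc
The Foxo1 window held 2 TAAT cores and 1 E-box, the Pax6 window 2 cores and no E-box, and the Rfx6 window 3 cores and no E-box. Of 32851 RefSeq windows of the same length, 54.9% held a TAAT core on either strand, with a mean of 1.26 cores, and 66.2% held an E-box. RefSeq gave windows for 8 of the 10 members, 9 in all because Pax6 has a second start, and had none for Mafa and Insm1. None of these 9 windows held the forkhead sequence TGTTTAC or the Maf site TGCTGAC on either strand, against 3.17% and 3.81% of all windows. A match is a run of letters only, and nothing about binding was measured.

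Total read counts per library were 1.69e+07 to 2.39e+07 on western diet and 1.65e+07 to 2.33e+07 on chow. The first principal component of log2 expression over all genes tested carried 24.2% of the variance. On it the western diet mouse of cage 2 came closest to the chow mice, at 7.52 against 14.9 to 23.5 for the other western diet mice, and chow mouse 1 lay farthest out, at -34.2 against -20.5 to -6.16 for the other chow mice. Both mice were left out together as an alternative, and the members' values without them are given with the other alternatives. They were picked from these same data, on an axis where every western diet mouse lay above every chow mouse. Leaving out the western diet mouse closest to chow can widen a diet difference, so a lower adjusted p without it is no independent support. The insulin genes, which define beta cells, were abundant in every library, with 165300 to 189700 CPM (read counts scaled to library size) of Ins2 on western diet and 158600 to 182600 CPM on chow.

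On western diet all 10 members had a lower mean than on chow. Foxo1, Insm1, Rfx6, Nkx2-2 and Pax6 passed the test across all genes and fell by 0.17 to 0.26 on the log2 scale, and none of the 10 rose. The test was edgeR's quasi-likelihood test with Benjamini-Hochberg adjustment over all genes tested, and calls were made at adjusted p-values under 0.05. Of all genes tested 10.8% were called, 5.27% as higher and 5.5% as lower, whereas 5 of the 10 members were called, all as lower. The median log2 fold change of the members was -0.22, and that of all genes tested was 0.01, with 49.0% of genes below 0. The members were chosen with earlier results in view, so their count is a description and carries no test of its own. In whole islets, fewer cells of a type and less RNA of a gene per cell cannot be told apart.

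**Figure D1:**
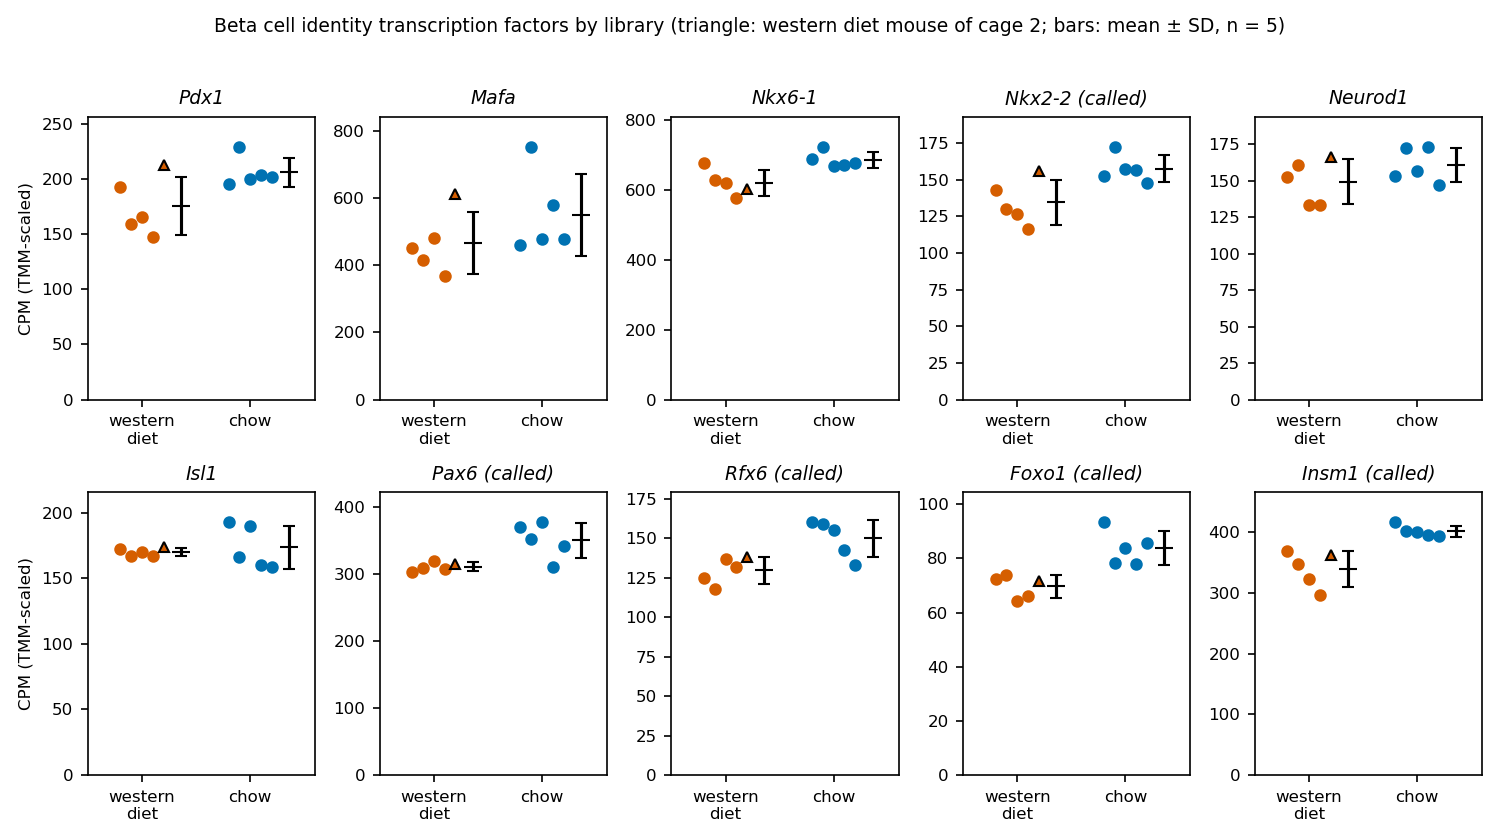
Expression of each member by mouse, as TMM-scaled CPM on a linear axis from 0. Orange points are western diet mice, with a triangle for the mouse of cage 2, blue points are chow mice, and bars are mean ± SD (n = 5 per diet). The 2 diets share no range for Foxo1 and Insm1, and overlap for the other 8 members.

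**Figure D2:**
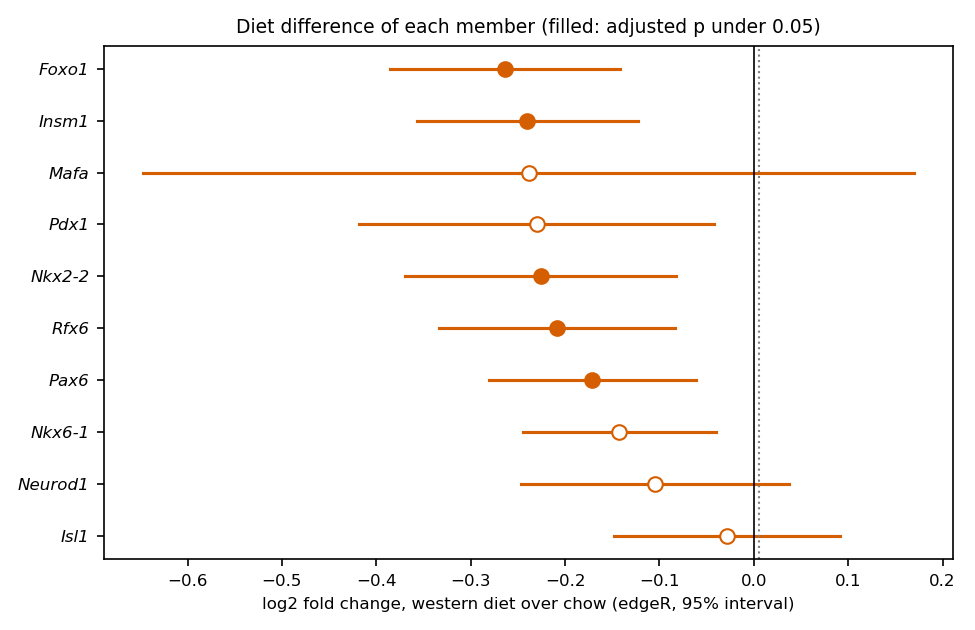
The log2 fold change of each member, western diet over chow, with its 95% interval from edgeR. Filled points had an adjusted p under 0.05, and the dotted line is the median of all genes tested. Every point lies below 0, from -0.26 for Foxo1 to -0.03 for Isl1, and the interval of Mafa is the widest.

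The 3 members restricted mostly to beta cells did not pass the test, and whether they differ from the other members was not tested. Pdx1, the homeodomain factor needed to form the pancreas and a direct activator of the insulin genes, had 192, 159, 165 and 147 CPM in western diet mice 1, 2, 5 and 4 of cage 4 and 212 CPM in the western diet mouse of cage 2. In chow mice 1 to 5 it had 195, 229, 199.7, 203 and 201 CPM. The 4 western diet mice of cage 4 lay below every chow mouse, and the mouse of cage 2 lay among them. Pdx1 averaged 175 ± 26.4 CPM on western diet and 206 ± 13.3 CPM on chow (n = 5 each, SD). Its log2 fold change was -0.23 ± 0.087 (SE, 95% interval -0.42 to -0.04), with an edgeR adjusted p of 0.1089. Without the western diet mouse of cage 2 the log2 fold change was -0.31, with an edgeR adjusted p of 0.009446, and without that mouse and chow mouse 1 it was -0.33, with an adjusted p of 0.01263. The mouse of cage 2 had the highest Pdx1 of its diet, so leaving it out was bound to widen the difference. It was the 1 mouse sequenced from cage 2, so cage and mouse cannot be told apart in it.

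Nkx6-1, a homeodomain repressor of the alpha cell programme, had 675, 626.5, 619.8 and 575 CPM in western diet mice 1, 2, 5 and 4 of cage 4 and 601.5 CPM in the western diet mouse of cage 2. Chow mice 1 to 5 had 686, 722, 667, 669 and 675 CPM. Of the western diet mice, 4 lay below every chow mouse and mouse 1 of cage 4 lay within the chow range. The means were 619.5 ± 36.7 CPM on western diet and 684 ± 22.6 CPM on chow (n = 5 each, SD), a log2 fold change of -0.14 ± 0.049 (SE) with an edgeR adjusted p of 0.06747. Without western diet mouse 1 of cage 4 the adjusted p of Nkx6-1 was 0.03618, and without the western diet mouse of cage 2 and chow mouse 1 together it was 0.1676. The authors' deposited table gives Nkx6-1 an adjusted p of 0.02773, and DESeq2 run on the counts gave 0.0208.

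Mafa, the leucine zipper factor that marks mature beta cells in the mouse and binds the insulin promoter, varied most between mice of the same diet. It had 453, 417, 480.0 and 368 CPM in western diet mice 1, 2, 5 and 4 of cage 4 and 613.5 CPM in the western diet mouse of cage 2. The values in chow mice 1 to 5 were 462, 753, 479.7, 579 and 479 CPM. The ranges overlapped widely, and the coefficient of variation was 19.8% on western diet and 22.2% on chow. The log2 fold change of Mafa was -0.24 ± 0.18 (SE), with an edgeR adjusted p of 0.4405 and a 95% interval from -0.65 to 0.17, so neither a fall as large as that of any other member nor a small rise was outside what these libraries allow. Without chow mouse 2, the highest of all, the log2 fold change of Mafa was -0.10, and it ranged from -0.36 to -0.10 with 1 mouse left out. Mafa was called in none of the alternatives tried.

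Among the factors shared by several endocrine cell types, 4 of 6 were called, against 10.8% of all genes tested. Of the 10 fits with 1 mouse left out, Rfx6 was called in 4, Nkx2-2 in 3 and Pax6 in 1. The 4 include Insm1, whose diets did not overlap and whose call held in all 10 fits. Insm1, a zinc finger factor of endocrine differentiation, had 369.5, 349, 323 and 297 CPM in western diet mice 1, 2, 5 and 4 of cage 4 and 363 CPM in the western diet mouse of cage 2. In chow mice 1 to 5 it had 417, 402, 401, 395 and 394 CPM. Every western diet mouse lay below every chow mouse, which held for 2 members, Insm1 and Foxo1, and for 8.85% of all genes tested in either direction. The means were 340.2 ± 30.0 CPM on western diet and 402 ± 9.0 CPM on chow (n = 5 each, SD), and the log2 fold change was -0.24 ± 0.056 (SE) with an edgeR adjusted p of 0.01107.

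Rfx6, a winged helix factor downstream of Neurog3 in endocrine development, had 125, 118, 136 and 132 CPM in western diet mice 1, 2, 5 and 4 of cage 4 and 138 CPM in the western diet mouse of cage 2. Chow mice 1 to 5 had 159.9, 159, 155, 142 and 133 CPM. Chow mouse 5 lay among the western diet mice and the other 4 chow mice lay above all of them. The means were 129.7 ± 8.53 CPM on western diet and 149.9 ± 11.8 CPM on chow (n = 5 each, SD), with a log2 fold change of -0.21 ± 0.060 (SE) and an edgeR adjusted p of 0.03209.

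Nkx2-2, a homeodomain factor that sets endocrine fates and represses alpha cell genes in beta cells, had 143, 130.2, 127 and 116 CPM in western diet mice 1, 2, 5 and 4 of cage 4 and 156 CPM in the western diet mouse of cage 2. Among chow mice 1 to 5 the values were 153, 172.5, 157, 157 and 148 CPM. As for Pdx1, the 4 western diet mice of cage 4 lay below every chow mouse and the mouse of cage 2 did not. The log2 fold change of Nkx2-2 was -0.23 ± 0.068 (SE), with an edgeR adjusted p of 0.04253.

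Pax6, a paired-domain and homeodomain factor of all islet endocrine cells, had 303.5, 309.6, 319.6 and 307 CPM in western diet mice 1, 2, 5 and 4 of cage 4 and 315 CPM in the western diet mouse of cage 2. In chow mice 1 to 5 it had 370.0, 352, 377, 309.7 and 342 CPM. The western diet mice spanned a narrow range that held chow mouse 4, and the other 4 chow mice lay above it. The SD was 6.46 CPM around a mean of 311 CPM on western diet and 26.5 CPM around 350.2 CPM on chow (n = 5 per diet). The log2 fold change of Pax6 was -0.17 ± 0.052 (SE), with an edgeR adjusted p of 0.0433.

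Neurod1 and Isl1 did not pass the test. Neurod1, the basic helix-loop-helix partner of the insulin E-boxes, ranged from 133 to 166 CPM on western diet and from 147 to 173 CPM on chow, with a log2 fold change of -0.10 ± 0.068 (SE, 95% interval -0.25 to 0.04) and an edgeR adjusted p of 0.3396. Without western diet mouse 5 of cage 4 the log2 fold change of Neurod1 was -0.065. Isl1, a LIM homeodomain factor that works with Ldb1, ranged from 167 to 174 CPM on western diet and from 159 to 193 CPM on chow. Its coefficient of variation was 1.87% on western diet, the lowest of the members, and 9.43% on chow. The log2 fold change of Isl1 was -0.03 ± 0.057 (SE, 95% interval -0.15 to 0.09), with an edgeR adjusted p of 0.8023, and its sign turned to 0.0052 without chow mouse 1.

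Foxo1, the forkhead factor that responds to insulin signalling, had the lowest adjusted p of the members. It had 72.4, 74.05, 64.45 and 66.1 CPM in western diet mice 1, 2, 5 and 4 of cage 4 and 71.8 CPM in the western diet mouse of cage 2. Chow mice 1 to 5 had 93.3, 78.5, 83.7, 77.75 and 85.6 CPM. Every western diet mouse lay below every chow mouse. The means were 69.8 ± 4.22 CPM on western diet and 83.8 ± 6.30 CPM on chow (n = 5 each, SD), a ratio of 0.833 (95% interval 0.765 to 0.907) and a log2 fold change of -0.26 ± 0.058 (SE) with an edgeR adjusted p of 0.008383.

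The calls of Foxo1 and Insm1 held in all 18 alternatives, with an edgeR adjusted p of at most 0.02786 for Foxo1 and 0.03527 for Insm1 when 1 mouse was left out. The other 3 calls did not hold in this way. Nkx2-2 lost its call without western diet mouse 2, 5 or 4 of cage 4 (edgeR adjusted p of 0.09389, 0.1049 and 0.09388) and without chow mouse 1, 2, 3 or 4 (edgeR adjusted p of 0.0653, 0.09095, 0.07436 and 0.06378). Rfx6 lost it without western diet mouse 1, 2 or 4 of cage 4 (edgeR adjusted p of 0.07171, 0.08783 and 0.05096), without chow mouse 1, 2 or 3 (edgeR adjusted p of 0.07411, 0.06684 and 0.06765) and without the western diet mouse of cage 2 and chow mouse 1 together (0.05087). Pax6 kept its call only without chow mouse 4, and its edgeR adjusted p was 0.08876, 0.08215, 0.06448 and 0.07183 without western diet mice 1, 2, 5 and 4 of cage 4 and 0.05478 without the western diet mouse of cage 2. Without chow mouse 1, 2, 3 or 5 the edgeR adjusted p of Pax6 was 0.09508, 0.0634, 0.1008 and 0.06048, and without the western diet mouse of cage 2 and chow mouse 1 together it was 0.1114. Without the western diet mouse of cage 2 and chow mouse 1 together, 4 members and 8.66% of all genes tested were called. These members were Nkx2-2 (-0.30, edgeR adjusted p = 0.009054), Pdx1 (-0.33, 0.01263), Insm1 (-0.25, 0.01826) and Foxo1 (-0.24, 0.02075). Mafa then had a log2 fold change of -0.42, Neurod1 -0.16 and Nkx6-1 -0.13, with edgeR adjusted p-values of 0.1849, 0.1719 and 0.1676. With 1 mouse left out, the log2 fold change stayed negative and ranged from -0.28 to -0.18 for Nkx2-2, from -0.25 to -0.17 for Rfx6 and from -0.22 to -0.15 for Pax6. The authors' deposited table gives adjusted p-values under 0.05 to 6 of the 10 members, the 5 called here and Nkx6-1, with the lowest values for Insm1 (0.001254) and Foxo1 (0.001378). The share of all genes under 0.05 by the authors' values was not counted here, so this member count has no background beside it.

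**Figure D3:**
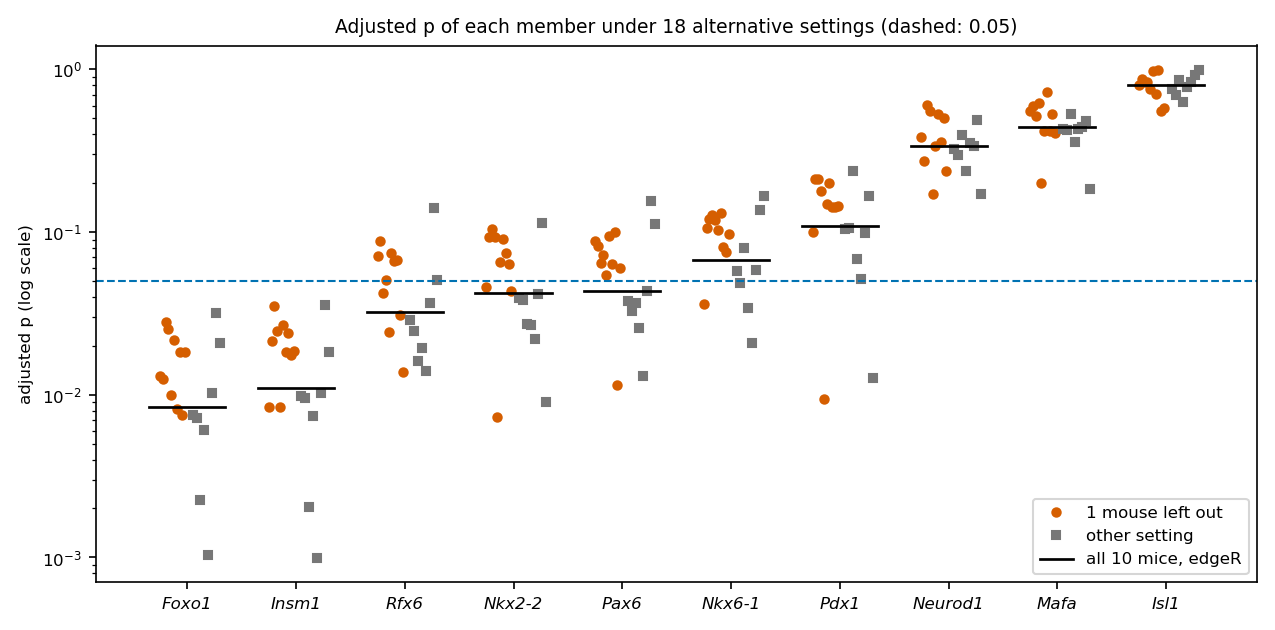
Adjusted p of each member on a log axis, with all 10 mice (black line), with 1 mouse left out (orange points) and under the other alternatives (grey squares). The dashed line is 0.05. All points of Foxo1 and Insm1 lie below it, those of Rfx6, Nkx2-2 and Pax6 fall on both sides, and none of Neurod1, Mafa and Isl1 lies below it.

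Single mice were high or low for several members at once. The western diet mouse of cage 2 had the highest value of its diet for 6 members, and western diet mouse 4 of cage 4 had the lowest for 6. Summed over the members, expression was 2812 CPM in the western diet mouse of cage 2 and 2310 to 2658 CPM in the western diet mice of cage 4, against 2763 to 3207 CPM in chow mice. Against the median of all 10 mice, western diet mouse 4 of cage 4 was above it for 0 members and the western diet mouse of cage 2 for 6, while chow mice were above it for 5 to 9. Among chow mice, mouse 1 and mouse 2 each had the highest value for 4 members, and mouse 5 had the lowest for 5.

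Per gene length, in the FPKM deposited by the authors, the members spanned more than 1 order of magnitude and kept the same order on both diets. This length counts every annotated exon base of a gene, 11694 over 26 transcripts for Pax6 and 2158 over 1 transcript for Pdx1. The order, and the place of Pax6 above all, therefore depends on this divisor. Nkx6-1 was highest at 197 ± 11.9 FPKM on western diet and 218 ± 7.27 FPKM on chow (n = 5 each, SD), and Mafa followed at 169.9 ± 33.7 FPKM on western diet and 201 ± 44.9 FPKM on chow. Insm1 had 109.6 ± 9.94 FPKM on western diet and 129.6 ± 2.79 FPKM on chow, and Pdx1 had 81.1 ± 12.3 FPKM on western diet and 95.3 ± 6.23 FPKM on chow. These 4 factors ranked between 7 and 15 among the 949 tested genes that the deposited table tags as transcription factors.

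Neurod1, Nkx2-2 and Isl1 formed a middle group at 54.6 ± 5.79, 46.7 ± 5.44 and 42.9 ± 0.842 FPKM on western diet and 58.9 ± 4.34, 54.8 ± 3.26 and 43.8 ± 4.11 FPKM on chow (n = 5 each, SD). Rfx6 had 32.3 ± 2.04 FPKM on western diet and 37.4 ± 2.94 FPKM on chow, and Pax6 had 26.6 ± 0.486 FPKM on western diet and 29.95 ± 2.27 FPKM on chow. Foxo1 was far below the others at 8.04 ± 0.520 FPKM on western diet and 9.67 ± 0.715 FPKM on chow, at rank 203 of 949. Among neighbours in this order, the ranges of Nkx6-1 and Mafa and those of Neurod1 and Nkx2-2 overlapped on both diets. Those of Insm1 and Pdx1 and of Nkx2-2 and Isl1 overlapped on western diet and not on chow.

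**Figure D4:**
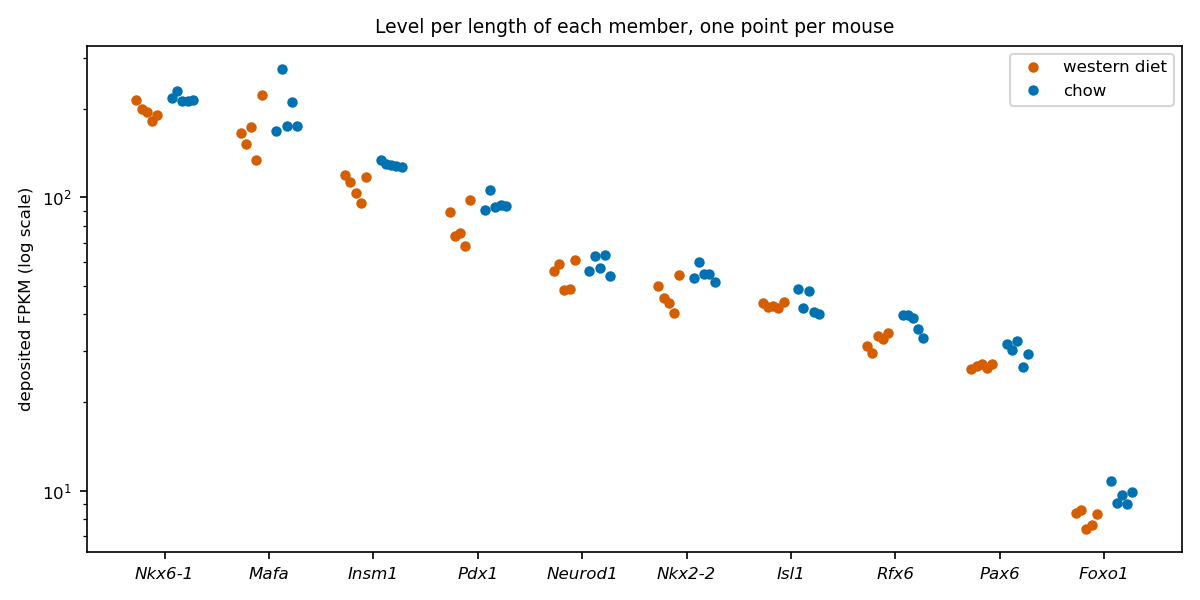
Level of each member per gene length (all annotated exon bases), in deposited FPKM on a log axis, with 1 point per mouse (orange, western diet; blue, chow). The order from Nkx6-1 to Foxo1 is by mean level. Foxo1 lies near 8.04 FPKM on western diet and 9.67 FPKM on chow, below all other members.

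Some members share their locus with another gene, and no source used here gives the strand setting, so reads of overlapping exons cannot be assigned with certainty. Coordinates are on GRCm38, and counts are over the exons of each gene. The loci of Mafa (chr15:75745490-75748228), Nkx6-1 (chr5:101658139-101664996), Isl1 (chr13:116298281-116309689), Rfx6 (chr10:51677756-51730432) and Insm1 (chr2:146221921-146225020) held no other annotated gene. The RefSeq start used for the Rfx6 window lies within this span.

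The antisense gene Pax6os1 lies over the start of Pax6 (chr2:105668900-105697364) and shares no exon base with it. It fell by 0.59 on the log2 scale, to 8.64 ± 1.33 CPM on western diet, against 13.0 ± 1.47 CPM on chow (n = 5 each, SD), at an edgeR adjusted p of 0.004723, with no overlap between the diets, and was called with each mouse left out. The antisense gene Plut over Pdx1 (chr5:147269959-147275848) had a log2 fold change of -0.50 ± 0.27 (SE), with an edgeR adjusted p of 0.2762, and shares no exon base with Pdx1. Cerkl, on the same strand as Neurod1 (chr2:79452521-79456751), shares 201 exon bases with it and fell by 0.32 on the log2 scale, with an edgeR adjusted p of 0.03054. Cerkl lost this call without western diet mouse 1, 5 or 4 of cage 4 or chow mouse 2 or 3, at up to 0.07239. Over Nkx2-2 (chr2:147177546-147194243), the antisense gene 6430503K07Rik had a log2 fold change of 0.02 with an edgeR adjusted p of 0.9398 and shares no exon base with it. The antisense gene Nkx2-2os shares 278 exon bases with Nkx2-2 and had 1 read over all western diet mice and 2 over all chow mice. Gm26755, on the other strand over Neurod1, shares 154 exon bases with it and had 0 reads over all western diet mice and 2 over all chow mice. Over Foxo1 (chr3:52268336-52353221), the antisense gene Gm20402 shares 674 exon bases and is absent from the genes of the deposited table. Gm38034, on the same strand, shares no exon base with Foxo1 and had 3 reads over all western diet mice and 4 over all chow mice.

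Transcription factors as a class give a second background for the members. Of the 949 tested genes tagged as transcription factors, which include the members, 97 or 10.2% were called lower and 25 or 2.63% higher, and their median was -0.03 on the log2 scale. Among homeobox genes, the class of Pdx1, Nkx6-1, Nkx2-2 and Isl1, 4 of 50 tested were called lower and 0 higher. The RFX class had 3 of 6 lower, the forkhead class 6 of 21 lower, and both had 0 higher. The RFX calls were Rfx6 itself and Rfx2 and Rfx5, which return among the near relatives below. How far the other classes share genes with the lists below was not counted. The leucine zipper class of Mafa had 10 of 39 lower and 2 higher, and the helix-loop-helix class of Neurod1 had 3 of 55 lower and 3 higher. The zinc finger class of Insm1, with 440 tested, had 31 lower and 10 higher. Its median was 0.0082 on the log2 scale, with 48.6% of genes below 0. In the other classes more genes lay below 0, at 70% of homeobox, 69.1% of helix-loop-helix and 61.9% of forkhead genes. The leucine zipper class had 59% below 0, the RFX class 100% and all 949 tagged genes 57.6%.

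The near relatives of the members were described as a list of 24 genes, of which 10 were tested, 4 of them were called lower and none higher, with a median of -0.10. Rfx2, of the Rfx6 family, averaged 16.3 ± 0.929 CPM on western diet and 25.4 ± 5.15 CPM on chow (n = 5 each, SD), a log2 fold change of -0.64 with an SE of 0.11, and edgeR gave an adjusted p of 0.002202. Foxo6, of the Foxo1 family, averaged 21.7 ± 4.87 CPM on western diet and 37.5 ± 3.13 CPM on chow, a log2 fold change of -0.78 with an SE of 0.13, and edgeR gave an adjusted p of 0.00358. Both calls held with each mouse left out. The calls of Foxo3 (-0.24) and Rfx5 (-0.27) were each lost without 7 of the 10 mice, with an edgeR adjusted p of up to 0.1003 for Foxo3 without western diet mouse 1 of cage 4 and up to 0.1187 for Rfx5 without western diet mouse 2 of cage 4. Foxo3 kept its call without western diet mouse 4 of cage 4 and without chow mouse 4 or 5, and Rfx5 without western diet mouse 5 of either cage and without chow mouse 5.

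Of 17 tested factors that also act in endocrine differentiation or function, 5 were called lower and none higher, with a median of -0.13. Myt1, a zinc finger factor of endocrine progenitors, averaged 74.9 ± 10.2 CPM on western diet and 116 ± 14.0 CPM on chow (n = 5 each, SD), with a log2 fold change of -0.62 with an SE of 0.0997, and edgeR gave an adjusted p of 0.003045. St18, its family member, had a log2 fold change of -0.27 (edgeR adjusted p = 0.008628), and Glis3, a zinc finger activator of the insulin genes, had -0.28 (edgeR adjusted p = 0.008495). These 3 calls held with each mouse left out. Hnf4a (-0.36) lost its call without western diet mouse 1, 5 or 4 of cage 4 or chow mouse 1, with an edgeR adjusted p of up to 0.0547, and Nr1d1 (-1.06) lost it without 7 of the 10 mice, with an adjusted p of up to 0.0852 without western diet mouse 5 of cage 4. The mice whose omission left Nr1d1 called were western diet mouse 1 of cage 4 and chow mice 2 and 4.

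Of 26 tested partners and cofactors of the members, 5 were called lower and none higher, with a median of -0.08. Tle3, a Groucho corepressor that homeodomain factors recruit, averaged 139.5 ± 11.6 CPM on western diet and 169 ± 11.7 CPM on chow (n = 5 each, SD), with a log2 fold change of -0.27 (edgeR adjusted p = 0.008655) that stayed called with each mouse left out. Ep300, Dnmt3a and Kdm1a were called at log2 fold changes of -0.19, -0.25 and -0.20. Ep300 lost its call without western diet mouse 2 of cage 4 (edgeR adjusted p = 0.0535), and Dnmt3a without western diet mouse 1, 2 or 4 of cage 4 or chow mouse 1 or 3, at up to 0.0638. Kdm1a lost it without 8 of the 10 mice, at up to 0.112 without chow mouse 1. Kdm1a stayed called without the western diet mouse of cage 2 and without chow mouse 2.

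Factors of other islet cells and of exocrine cells did not pass the test, which 10.8% of all genes tested passed. Several were low, with western diet means of 1.02 CPM for Pou3f4, 0.915 CPM for Sox9 and 0.768 CPM for Gata4. Every member had at least 64.45 CPM in each mouse, so these lists and the members are not matched in level. Of 6 tested alpha, delta and PP cell factors 0 were called in either direction, with a median of 0.13. Irx2, an alpha cell factor, had a log2 fold change of 0.33 (edgeR adjusted p = 0.1032) and was called as higher without western diet mouse 5 of cage 4 (0.04012), and Hhex, a delta cell factor, had -0.19 (0.2029). Of 10 tested progenitor, duct and acinar factors 0 were called, with a median of -0.18. Among them Nr5a2, an acinar factor, averaged 1.11 ± 0.376 CPM on western diet and 1.83 ± 0.527 CPM on chow (n = 5 each, SD), with a log2 fold change of -0.72 (edgeR adjusted p = 0.1147). Bhlha15, listed with the acinar factors and picked after its values were seen, averaged 109 ± 21.2 CPM on western diet and 67.5 ± 21.4 CPM on chow (n = 5 each, SD). Its log2 fold change was 0.69 (edgeR adjusted p = 0.1182). Rbpjl, another listed acinar factor, averaged 1.23 CPM on western diet and 1.36 CPM on chow. Summed acinar markers reached 853.7 to 6163 CPM on western diet and 713.5 to 2994 CPM on chow. Which cells the Bhlha15 reads came from was not tested.

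The called targets of the beta cell factors did not move one way, while most targets had a lower mean on western diet. Of those tested, Ins1, Ins2, Iapp and G6pc2 had positive log2 fold changes and all others negative ones. Of the 16 targets tested, 2 were called higher and 2 lower, with a median of -0.08. Slc2a2, the glucose transporter of mouse beta cells and a target of Pdx1, averaged 698 ± 105 CPM on western diet and 1016 ± 98.5 CPM on chow (n = 5 each, SD), a log2 fold change of -0.54 with an SE of 0.10, and edgeR gave an adjusted p of 0.007478. Slc30a8, the zinc transporter of insulin granules, had a log2 fold change of -0.27 (edgeR adjusted p = 0.004518). G6pc2, the islet glucose-6-phosphatase, averaged 3762 ± 109 CPM on western diet and 2723 ± 207 CPM on chow, a log2 fold change of 0.47 with an SE of 0.051, and edgeR gave an adjusted p of 3.817e-05. These 3 calls held with each mouse left out. Iapp, the amylin gene, was called at 0.19 (edgeR adjusted p = 0.01931), and lost its call without western diet mouse 1 or 5 of cage 4 or chow mouse 1 or 3, at up to 0.0707. Ins1 and Ins2 had log2 fold changes of 0.11 and 0.07, with edgeR adjusted p-values of 0.207 and 0.3369.

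Of 12 tested Foxo1 targets, 3 were called lower and 1 higher, with a median of -0.07. Cited2, a transcriptional cofactor, averaged 103 ± 9.77 CPM on western diet and 136.5 ± 11.7 CPM on chow (n = 5 each, SD), a log2 fold change of -0.41 with an SE of 0.069, and edgeR gave an adjusted p of 0.001798. Sesn3, a sestrin that restrains mTORC1, had a log2 fold change of -0.28 (edgeR adjusted p = 0.008631), and both calls held with each mouse left out. Irs2, which carries the insulin signal from its receptor, was called at -0.52 and lost its call without western diet mouse 1 or 5 of cage 4 or chow mouse 1, 2 or 3, at an edgeR adjusted p of up to 0.0747. Cdkn1b, a cyclin-dependent kinase inhibitor, was called higher at 0.24 and lost its call without chow mouse 3 (edgeR adjusted p = 0.05002).

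**Figure D5:**
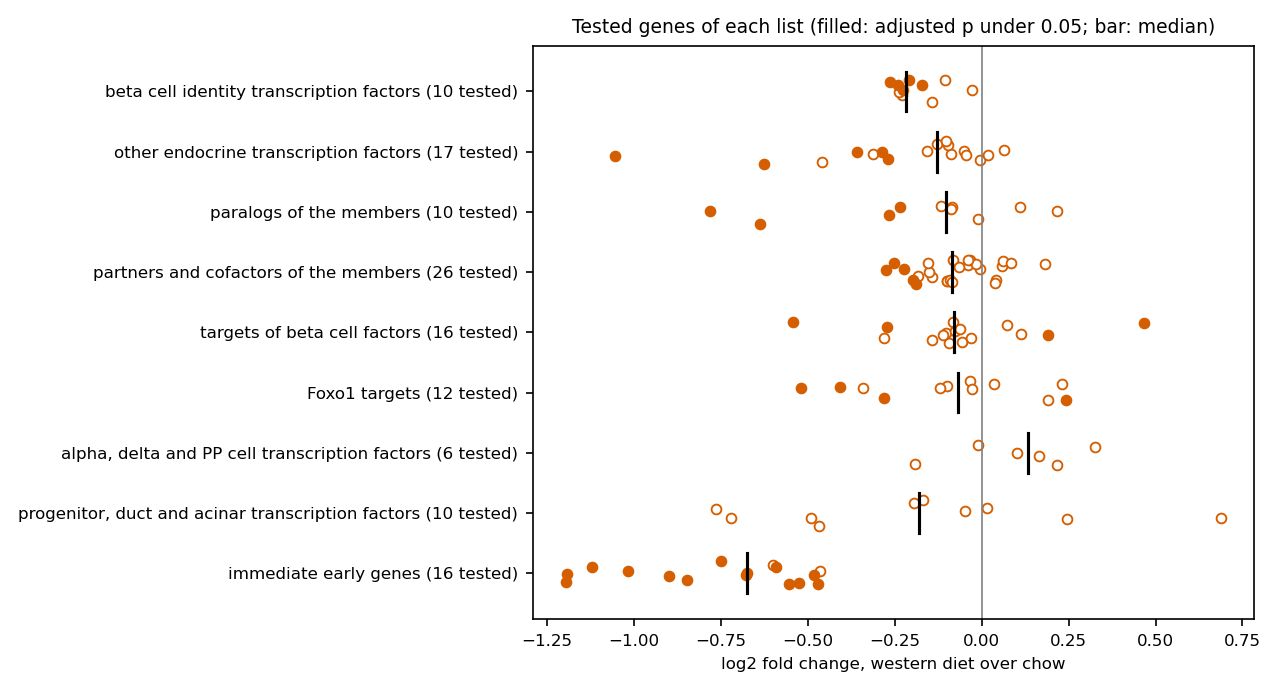
The log2 fold change, western diet over chow, of each tested gene in the members and in 8 other lists. Filled points had an adjusted p under 0.05 and bars are list medians. The median of the members is -0.22, that of the alpha, delta and PP cell factors is 0.13 and that of the immediate early genes is -0.68.

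Markers of other cells and of handling were read beside the members. Immediate early genes, which cells induce within minutes of stimulation or dissociation, were called lower in 14 of 16 cases, with a median of -0.68 and a summed level of 9600 to 11840 CPM on western diet and 16010 to 19530 CPM on chow, without overlap. Summed beta cell markers reached 244000 to 279400 CPM on western diet and 233200 to 270000 CPM on chow, with 2 of 8 called higher and 2 lower. Summed alpha cell markers reached 10430 to 14230 CPM on western diet and 11050 to 16110 CPM on chow, with Gc (0.26) and Ttr (0.20) called higher among 8 tested, and delta and PP cell markers 4298 to 5217 CPM on western diet and 3653 to 6986 CPM on chow, with 0 of 6 called. Acinar markers varied most, from 853.7 to 6163 CPM on western diet and from 713.5 to 2994 CPM on chow, with 0 of 10 called. Gc lost its call without western diet mouse 1 or 4 of cage 4 or chow mouse 1 or 5, at an edgeR adjusted p of up to 0.07738, and Ttr without western diet mouse 1, 2 or 4 of cage 4 or chow mouse 3, 4 or 5, at up to 0.0957. With 1 mouse left out, 12 to 14 immediate early genes were called.

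Duct markers reached 379.5 to 403.8 CPM on western diet and 358 to 405.8 CPM on chow, with Krt19 (-2.64) and Muc1 (-1.01) called lower among 6 tested. Most of this sum was Krt7 (means of 235 CPM on western diet and 225 CPM on chow) and Epcam (128.2 and 128.5 CPM). Both called genes were near the floor, with Krt19 at 0.57 CPM on western diet and 3.58 CPM on chow and Muc1 at 1.51 and 2.99 CPM. Muc1 lost its call without western diet mouse 1 or 2 of cage 4, the western diet mouse of cage 2, or chow mouse 1 or 5, at an edgeR adjusted p of up to 0.09947. Endothelial markers reached 234.9 to 281.6 CPM on western diet and 280.5 to 308.3 CPM on chow, with Kdr (-0.28) lower among 6, and stromal markers 108.7 to 132.6 CPM on western diet and 114.2 to 190.3 CPM on chow, with Pdgfrb (-0.44) lower among 5. Macrophage and leukocyte markers reached 30.23 to 75.25 CPM on western diet and 34.93 to 47.13 CPM on chow, with 0 of 6 called. Cd3e and Pdgfra were at 0 in at least 1 library of each diet, and Amy2a1 and Cftr in at least 1 western diet library. The part of immediate early genes or of other cells in the lower levels of the members was not tested.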

How the data were processed

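The authors deposited 1 table for the 10 libraries, with whole-number read counts per gene per the file headers, without normalization. The table also holds the authors' signal values, which are the counts divided by 1 size factor per library, and these were not used in any test. Its FPKM, per the file headers, are proportional to count over gene length with 1 constant per library, and served to compare levels between genes. The authors' log2 fold changes and p-values, per the file headers, are printed only where named as theirs. Per the submitters' processing notes the tools were STAR 2.5, HTSeq 2 and DESeq2 and the build mm10 or GRCm38, in no stated order. Libraries were made with a NEBNext Ultra RNA kit, per the labels, and no source used here gives the strand setting.

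Testing used edgeR 4.0.16 under R 4.3.3. The filterByExpr step had a minimum count of 10, libraries were scaled with TMM factors, and a robust quasi-likelihood model compared 5 western diet with 5 chow mice, without covariates. Benjamini-Hochberg adjustment ran over 15104 genes. CPM were computed from TMM-adjusted library sizes. Each SE is the absolute log2 fold change over the square root of F. Total counts were 1.65e+07 to 2.39e+07 per library, and the spread between mice includes counting error.

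The members and the gene lists were chosen with earlier results of these data known. Named genes are all members, up to 6 called genes of each list by smallest p, or else its 2 smallest, and always Ins1, Ins2, Slc2a2 and G6pc2; of the cell marker lists, counts and the called genes are given. A few genes under this rule are not reported here; list counts and medians include them. Windows of the other starts hold more annotated exon or belong to members not called, and are not printed. Promoter windows come from RefSeq on GRCm38.p6, and overlapping genes from GENCODE M21 (GRCm38). As alternatives, scaling used RLE or upper quartile factors, the filter was dropped or set to a mean of 5 CPM, the test was DESeq2 1.42.0 or limma-voom (limma 3.58.1), a block held the mouse number, and mice were left out.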

Additional observations from a re-analysis of the deposited data

Results flagged for a closer look

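Pdx1 in chow mouse 2 stood apart from the other chow mice. It had 228.8 CPM, against 203.1 CPM in the nearest chow mouse and 195.4 CPM in the lowest, so that the gap took up 0.769 of the whole range of that diet, above Dixon's critical value of 0.71 for 5 samples. Without chow mouse 2 the log2 fold change of Pdx1 stayed negative and did not pass the test. In all, 22 groups of 5 mice were examined in this way, and chance marks about 1 in 20.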

How the results depend on the processing

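With all 10 mice, 1627 genes were called, 796 of them higher and 831 lower on western diet. The count ranged from 938 to 1813 when 1 mouse was left out, with 376 to 921 higher and 562 to 892 lower, and was lowest without chow mouse 1. Members called ranged from 2 to 5 against 5 with all mice, while 6.17% to 11.8% of all genes tested were called against 10.8%. List genes called ranged from 13 to 22 against 22. DESeq2, upper quartile factors and the 5 CPM minimum each called 6 members, and RLE factors, no filter and limma-voom 5. Of all genes tested, these settings called 13.7%, 10.6%, 15.3%, 10.6%, 5.68% and 10.1%, in the order named. With mouse number as a replicate block, 841 genes (342 higher and 499 lower), or 5.57% of those tested, and 2 members, Foxo1 and Insm1, were called. Deviations of same-numbered mice from their diet means had correlations from -0.132 to 0.107. Both western diet mice numbered 5 were set against chow mouse 5, and chow mouse 3 had no partner. So few pairs cannot show whether the numbers pair the mice. Of the member values under the alternatives, 144 kept direction and side of the threshold, 27 lost and 6 gained the call, and 3 changed sign. Those 3 were Isl1, at 0.01372 under the replicate block, 0.0052 without chow mouse 1 (from -0.061 to 0.0052 with 1 mouse left out) and 0.0015 without that mouse and the western diet mouse of cage 2. The cause was not tested. All members had at least 64.45 CPM in every mouse. How depth and the number of mice bear on the calls was not tested.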
